A study of Mus musculus with 72 samples.

Results

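The 10 genes described here respond to glucocorticoids or carry their signal: *Fkbp5*, *Tsc22d3*, *Sgk1*, *Zbtb16*, *Klf9*, *Klf15*, *Mt1*, *Mt2*, *Nr3c1*, and *Cebpd*. Membership follows from a list of names with no threshold on a measured value, and 10 of 10 were found by symbol under 1 Ensembl ID each among the 55401 genes counted. Poly(A) RNA-Seq of 72 libraries from male mice measured them, and all 10 passed the filter on low counts in every model.

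Gastrocnemius, a calf muscle of mostly fast fibers, came from WT littermates, global *Bmal1*-KO mice, and KO+AAV mice. There were 6, 6, and 7 libraries of these groups at 10 weeks and 5 each at 40 weeks. *Bmal1* (gene symbol *Arntl*) encodes an activator of the circadian clock, and the KO lacks it in every tissue. The KO+AAV mice carried the same deletion and had received an AAV9 vector with HA-tagged *Bmal1* cDNA on postnatal day 5. Its CK6 promoter is active in skeletal muscle, so the vector is not designed to restore *Bmal1* in the brain, adrenal gland, or other organs. Lung, heart, liver, and white fat came from 4 KO and 4 KO+AAV mice at 40 weeks, with no WT libraries. A separate experiment at 10 weeks set gastrocnemius of 3 KO mice labelled GFP (KO+GFP), which had received a GFP vector with the same serotype and promoter, beside 3 control KO mice. Tissue was collected at ZT1, 1 hour after lights on, except that the labels give no time for the GFP experiment. Not all KO mice of the study lived to 40 weeks, so the groups of that age hold survivors.

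Corticosterone, the main glucocorticoid of mice, is released by the adrenal gland in a daily rhythm and in response to stress, and in nocturnal mice its level is low early in the light phase. It binds the glucocorticoid receptor, which then enters the nucleus and acts on genes with glucocorticoid response elements. In skeletal muscle this response includes protein breakdown, release of amino acids, and a switch from glucose to fat as fuel. *Nr3c1* encodes the receptor itself. *Fkbp5* encodes a co-chaperone that lowers the receptor's affinity for the hormone, and *Tsc22d3* (GILZ) encodes an anti-inflammatory effector. *Sgk1* encodes a kinase, and *Zbtb16*, *Klf9*, *Klf15*, and *Cebpd* encode transcription factors, of which KLF15 acts on amino acid catabolism. *Mt1* and *Mt2* encode metallothioneins, small proteins that bind zinc and copper, and are induced by metals and inflammation as well as by glucocorticoids.

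On GRCm38 the genes lie at chr17:28399094-28517527 (*Fkbp5*, minus strand), chrX:140539528-140600659 (*Tsc22d3*, minus), chr10:21882184-21999903 (*Sgk1*, plus), chr9:48654297-48836222 (*Zbtb16*, minus), chr19:23141226-23168134 (*Klf9*, plus), chr6:90462576-90475238 (*Klf15*, plus), and chr16:15887286-15891031 (*Cebpd*, plus). *Mt2* (chr8:94172664-94173568) and *Mt1* (chr8:94179082-94180327) are neighbors on the plus strand, and are close paralogs whose reads can be hard to assign. Of the exon bases of *Mt2*, 73.5% are shared with *Gm45774* on the other strand, and of those of *Cebpd*, 15% with *Spidr*. Whether counting used the strand is not stated, so it is uncertain to which gene of each pair, if either, reads over the shared bases were assigned.

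The promoter windows below, 250 bases before to 50 after a RefSeq start on GRCm38.p6, are shown for the members called in a comparison that have one in the RefSeq table, since the text turns on how these genes differ between groups. RefSeq windows were read for 7 of the 10 genes. Capitals mark metal response element cores (TGCACNC or TGCGCNC) in both metallothionein windows, and an E-box (CACGTG) and a palindromic glucocorticoid response element (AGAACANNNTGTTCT) in the *Sgk1* window, on either strand.
*Mt2* (chr8:94172368-94172667, plus strand): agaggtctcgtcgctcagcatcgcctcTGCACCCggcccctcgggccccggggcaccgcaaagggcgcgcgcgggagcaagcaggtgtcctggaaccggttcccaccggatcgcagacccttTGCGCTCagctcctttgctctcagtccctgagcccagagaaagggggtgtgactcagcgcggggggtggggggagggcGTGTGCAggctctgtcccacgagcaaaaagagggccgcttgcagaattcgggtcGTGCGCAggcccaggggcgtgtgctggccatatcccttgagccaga
*Mt1* (chr8:94178839-94179138, plus strand): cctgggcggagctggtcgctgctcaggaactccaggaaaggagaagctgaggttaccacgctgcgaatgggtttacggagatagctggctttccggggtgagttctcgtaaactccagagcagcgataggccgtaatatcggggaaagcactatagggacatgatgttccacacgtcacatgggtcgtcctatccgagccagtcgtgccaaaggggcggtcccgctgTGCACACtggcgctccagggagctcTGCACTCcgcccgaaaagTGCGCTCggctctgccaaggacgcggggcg
*Sgk1* (chr10:21993640-21993939, plus strand): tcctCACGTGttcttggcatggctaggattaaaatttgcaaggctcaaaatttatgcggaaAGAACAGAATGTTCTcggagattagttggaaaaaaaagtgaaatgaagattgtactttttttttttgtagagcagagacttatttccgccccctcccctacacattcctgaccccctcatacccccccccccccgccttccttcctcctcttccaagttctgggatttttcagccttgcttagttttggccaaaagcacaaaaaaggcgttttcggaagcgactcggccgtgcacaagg

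The *Mt1* window held 2 cores of the first form and 1 of the second, and the *Mt2* window held 2 of each. Of 32851 RefSeq promoter windows of this length, 12.6% held the first form and 15.4% the second. The palindrome with 3 free bases stood in 3 of the 32851 windows (0.00913%), and the *Sgk1* window shown, 1 of 6 alternative starts of this gene read and chosen for this match, was one of them. The half-site AGAACA alone was found in 19% of windows. An E-box, the site that BMAL1 and CLOCK bind, stood 3 times in the *Klf15* window and once each in that of *Fkbp5* and in the *Sgk1* window shown, against 7.15% of all windows with at least 1. A match describes letters, and binding was not measured here.

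Libraries held 6754312 to 50755829 reads on genes, with the smallest in the GFP experiment. The 2 sequencing sites (ICBR and Novogene) shared the WT, KO, and KO+AAV libraries of 10 weeks, and 3726 of 16199 genes (23%) differed between sites, none of them a member. *Arntl* counts run over the whole gene, and transcript reads remained in the KO: at 10 weeks *Arntl* stood at 402 to 634 normalized counts in WT, 196 to 296 in KO, and 169 to 281 in KO+AAV. At 40 weeks KO library 2 had 1039, above all WT libraries (480 to 608), while *Dbp*, a clock output gene, was at 32.2 to 92.8 in the 5 KO libraries and 560 to 877 in WT. In liver *Arntl* was at 584 to 679 in KO and 781 to 1231 in KO+AAV, without overlap, and in heart at 484 to 653 and 627 to 821. Muscle fiber markers were high in every gastrocnemius library. In KO heart library 2, hepatocyte markers summed to 13188 RPKM against 2.85 to 5.08 in the other hearts. In KO white fat library 2, epididymis markers summed to 16928 RPKM against 0.0157 to 16.2 in the other fat libraries. Both stand apart from their labels, so the comparisons and levels of heart and white fat are also given without them where the value or the order moves. In bulk tissue, fewer cells of a type and less RNA per cell cannot be told apart.

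At 10 weeks, *Tsc22d3* was the member with the clearest difference between WT and KO muscle. In WT it ranged from 2346 to 5653 (median 3495) normalized counts. In KO the range was 1418 to 2214 (median 2018). Every WT library was above every KO library. The difference was 0.82 ± 0.28 (log2(normalized count + 1), first group minus second, ± SE, as for all differences below) with an adjusted *P* of 0.0703 (limma, Benjamini-Hochberg over 16199 genes). It met the study's threshold, an unadjusted *P* under 0.01, as 10.9% of all genes did, but not the rule for a call here, an adjusted *P* under 0.05. Within the ICBR libraries it was 0.78 ± 0.12 (adjusted *P* = 0.00528) and within the Novogene libraries 0.87 ± 0.47 (adjusted *P* = 0.518).

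*Fkbp5* was at 1049, 867, 1022, 641, 788 and 849 normalized counts in the 6 WT libraries. In the 6 KO libraries it was at 166, 118, 453, 160.0, 1364 and 183, so 4 KO libraries lay close together near 200 or less, 1 was intermediate, and KO library 6 exceeded every WT library. The difference of 1.68 ± 0.71 had an adjusted *P* of 0.163, and without KO library 6 it was 2.21 ± 0.70 and passed (adjusted *P* = 0.0455). In the 7 KO+AAV libraries *Fkbp5* was at 2516, 146, 328, 171, 297, 199 and 129. Again 1 library stood high, and without KO+AAV library 1 the difference of WT from KO+AAV passed (2.10 ± 0.63, adjusted *P* = 0.0483), while with it the value was 1.60 ± 0.69 (adjusted *P* = 0.197).

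In counts, 0 of 10 members were called between WT and KO at 10 weeks with limma, where 8% of all genes were called. At an unadjusted *P* under 0.05 there were 2 (*Fkbp5* and *Tsc22d3*). Of all genes, 6.06% had groups without overlap, as *Tsc22d3* did. edgeR called 0 and DESeq2 called 1, *Tsc22d3* (0.88, adjusted *P* = 0.0364). *Tsc22d3* also passed in limma (adjusted *P* = 0.00337) when the KO and KO+AAV libraries numbered 2 at 40 weeks, which share the model's estimate of the spread, were left out. The median difference of the members was 0.26, against -0.01 over all genes.

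The remaining members had overlapping groups at 10 weeks. *Klf9* ranged from 2736 to 3344 in WT and from 2635 to 3487 in KO, *Klf15* from 316 to 685 and from 464 to 673, and *Zbtb16* from 762 to 1497 and from 934 to 1488. The receptor gene, *Nr3c1*, lay in WT at 1491 to 1912 (median 1698), and in KO at 1367 to 1756 (median 1569). *Cebpd* was the most variable of the transcription factors, at 90.8 to 687 in WT and 79.4 to 332 in KO. The metallothioneins were low, *Mt1* in WT at 67.4 to 193 and in KO at 85.9 to 166. *Mt2* was still lower, at 19.7 to 106 and 16.8 to 44.0.

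In KO+AAV muscle at 10 weeks *Sgk1* had 1469 to 2501 (median 1785) normalized counts, in KO 2037 to 2596 (median 2363), and in WT 2124 to 4731 (median 2999). The 3 groups overlapped. WT against KO+AAV gave 0 calls of 10 in limma (5.15% of all genes), with 3 members at *P* under 0.05 and 0 calls in edgeR and DESeq2. The 3 were *Fkbp5*, *Tsc22d3* (0.57, adjusted *P* = 0.263), and *Sgk1* (0.69, adjusted *P* = 0.201). Within the ICBR libraries *Tsc22d3* (0.72, adjusted *P* = 0.00901) and *Sgk1* (0.90, adjusted *P* = 0.0063) passed, and within Novogene they did not (0.38 and 0.46, adjusted *P* = 0.883 and 0.866). Both also passed without the 2 libraries numbered 2 at 40 weeks (adjusted *P* = 0.0486 and 0.0261).

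**Figure D1:**
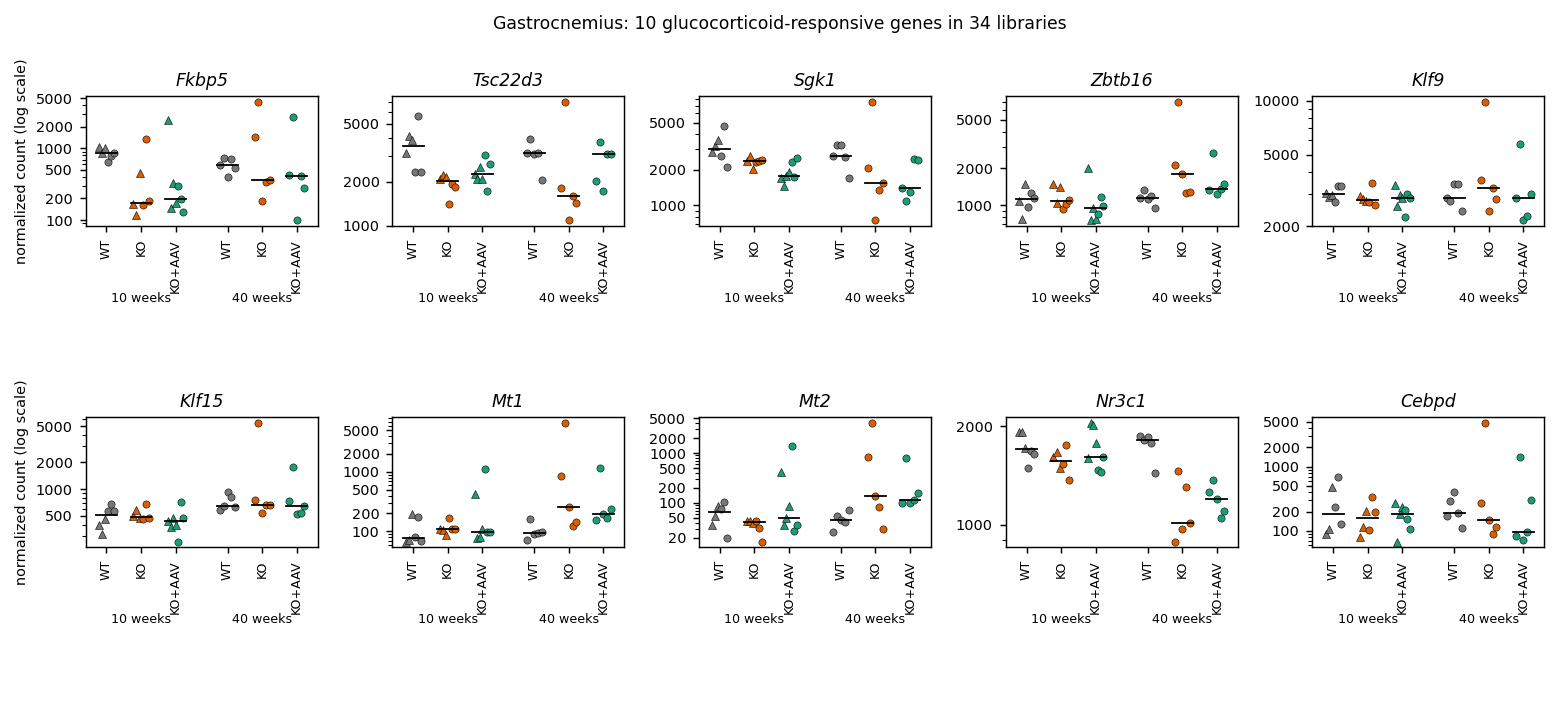
Normalized counts (log scale) of the 10 genes in the 34 gastrocnemius libraries by group at 10 and 40 weeks; triangles are ICBR and circles Novogene libraries, and a dash marks the group's median. At 40 weeks the highest KO point, library 2, is above all WT points for 9 of the 10 genes, and for *Fkbp5* at 10 weeks 1 KO and 1 KO+AAV library stand far above the others of their group.

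At 40 weeks, 3 of 10 members differed between WT and KO muscle (23.5% of all genes). *Nr3c1* was higher in WT (12% of all genes were), and *Mt1* and *Zbtb16* were lower in WT (11.5%). None of the 10 had groups without overlap, against 13.6% of all genes. *Nr3c1*, the receptor gene, was at 1865, 1812, 1848, 1770.2 and 1433 normalized counts in WT libraries 1 to 5. In KO it was at 889, 1463, 972, 1305 and 1011. Only KO library 2 reached the range of WT, whose lowest library was number 5. The difference was 0.65 ± 0.11 (adjusted *P* = 5.47e-05), a 1.57-fold higher level in WT. In the same muscles 2 of 7 adipocyte markers and 2 of 5 fibroblast markers (*Dcn* and *Pdgfra*) were higher in WT, with summed fibroblast levels of 56.5 to 93.9 RPKM in WT and 17.9 to 64.3 in KO, and their part in the result was not tested.

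*Mt1* was at 71.2, 160.4, 90.3, 93.8 and 98.5 in WT at 40 weeks. In KO it was at 847, 6513, 261, 123 and 143, so KO libraries 1 and 2 stood far above WT, library 3 above it, and libraries 4 and 5 inside its range. The difference was -2.27 ± 0.75 (adjusted *P* = 0.0261). *Mt2* was likewise highest in KO libraries 2, 1, and 3, with 26.7, 55.1, 46.0, 42.2 and 71.9 in WT and 821, 3931, 138, 82.1 and 30.3 in KO, and a difference of -2.46 ± 0.95 that did not pass (adjusted *P* = 0.0568). *Zbtb16* was at 1136, 1319.6, 1111, 1190.0 and 944 in WT and 2128, 6952, 1781, 1265 and 1276 in KO (-0.90 ± 0.31, adjusted *P* = 0.0314).

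The calls of *Mt1* and *Zbtb16* depended on single libraries, while that of *Nr3c1* held with each library left out (limma, adjusted *P* from 3.57e-06 to 0.00036). Without KO library 2 the called members were *Nr3c1* (0.75, adjusted *P* = 3.57e-06), *Tsc22d3* (1.05 ± 0.23, adjusted *P* = 0.00126), and *Sgk1* (0.97 ± 0.25, adjusted *P* = 0.00566), all higher in WT. *Mt1* (-1.33, adjusted *P* = 0.139) and *Zbtb16* (-0.47, adjusted *P* = 0.165) then missed the threshold. The median difference of the members was -0.41 with all libraries (0.01 over all genes) and 0.28 without the KO and KO+AAV libraries numbered 2. Without WT library 1, *Mt1* and *Zbtb16* missed it too (adjusted *P* = 0.0586 and 0.0541). edgeR called 4 members (*Mt2* added) and DESeq2 called 6 (also *Klf15* and *Cebpd*). The shares of all genes called by edgeR, by DESeq2, or without a library are not given, so these counts cannot be set against one.

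For *Tsc22d3* and *Sgk1* the call turned on KO library 2. *Tsc22d3* was at 3159, 3927, 3090.2, 3162 and 2055 in WT and at 1817, 6989.8, 1088, 1601 and 1437 in KO at 40 weeks. The other 4 KO libraries were below every WT library, and library 2 was above every one, and the difference over all 5 was 0.59 (adjusted *P* = 0.173). *Sgk1* gave 2617, 3267, 3214, 2582 and 1689.7 in WT and 2062, 7455, 743, 1346 and 1529 in KO, with a difference of 0.47 (adjusted *P* = 0.343). Its KO library 2 was likewise the highest, while 3 KO libraries were below the lowest WT library.

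KO library 2 at 40 weeks held the highest value of its group for 10 of 10 members, where 30.5% of all genes had their highest value in that library. Of all 15 gastrocnemius libraries of that age it was the highest for 9 of 10 (18.9% of all genes), the exception being *Nr3c1*. The member values in it included 5408 for *Klf15*, against 759, 539.5, 664 and 667 in the other KO and 589 to 938 in WT libraries. *Cebpd* stood at 4685 there, against 275, 150.2, 91.0 and 114 in the other KO and 109 to 396 in WT libraries. *Klf9* stood at 9799.7, against 3630.3, 2419, 3266 and 2842 and 2437 to 3429. Relative to the WT mean, the median member was 2.77 log2 units higher in this library, and between -0.63 and 0.34 in the other 4 KO libraries.

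The KO+AAV library numbered 2 at 40 weeks stood out within its own group. It was the highest of its group for 9 of 10 members (29.9% of all genes). Of the 15 gastrocnemius libraries of that age it was the highest for 0 of 10 (9.26% of all genes). *Sgk1* was highest in library 4 of the group, and in library 2 it was at 1089, the lowest of the group. *Fkbp5* was at 424, 2714, 98.7, 409 and 276 in KO+AAV libraries 1 to 5, and at 1439, 4404, 185, 341 and 363 in KO and 586, 728, 404, 708 and 529.9 in WT. The median member of the KO+AAV libraries relative to the WT mean was 1.27 in library 2 and between -0.50 and 0.04 in the others, and in the WT libraries it lay between -0.27 and 0.29. The labels do not say whether a KO and a KO+AAV mouse of the same number share anything.

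Other genes of the response were also highest in KO library 2. Of 20 further glucocorticoid-responsive genes tested, 14 had their highest 40-week value in it (18.9% of all genes), among them *Foxo1*, *Trim63*, and *Pik3r1*. KO+AAV library 2 held the highest value of 2 of the 20 (*Fbxo32* and *Pdk4*), near its share of all genes (9.26%). *Trim63* and *Fbxo32*, which encode the ubiquitin ligases MuRF1 and atrogin-1 of muscle atrophy, reached 63967 and 37693 in KO (medians 4219 and 5984) and 34644 and 39574 in KO+AAV (medians 4785 and 6878). Of the acute phase genes, 4 of 7 were highest in KO library 2 (*Lcn2*, *Serpina3n*, *Lrg1*, and *Cp*). Among markers of other cells, 1 of 8 macrophage, 0 of 7 adipocyte, 0 of 6 endothelial, and 0 of 5 fibroblast genes had their highest value there. The receptor machinery list had 2 of 16.

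**Figure D2:**
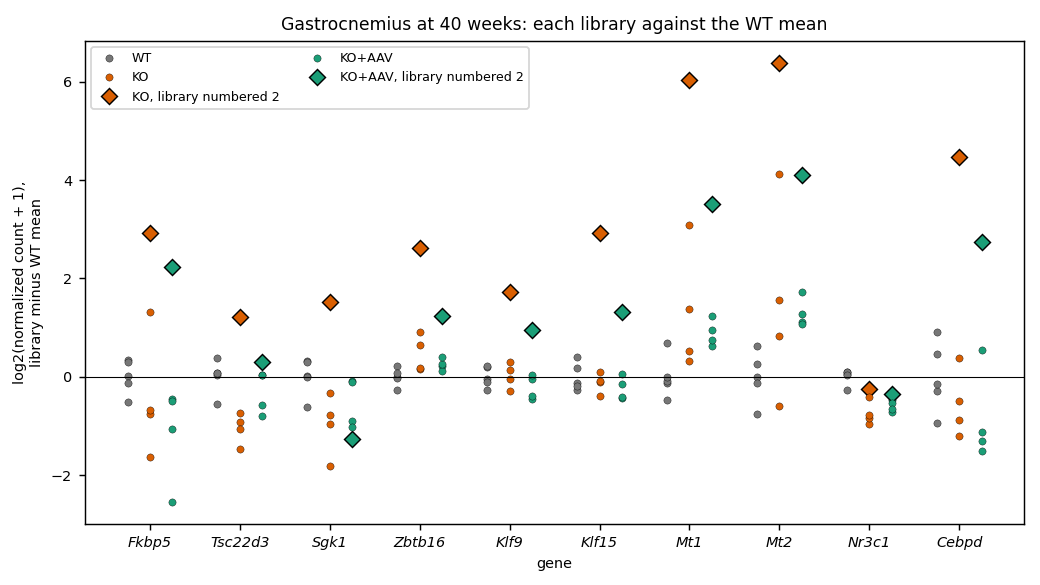
Difference of each 40-week gastrocnemius library from the WT mean, log2(normalized count + 1), for the 10 genes; diamonds are the KO and KO+AAV libraries numbered 2. The KO diamond lies above all other KO points for each gene, and for *Nr3c1* most KO and KO+AAV points lie below the WT points.

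The spread between KO mice at 40 weeks was large. The SD over libraries on the log2 scale had a median over the members of 0.343 for WT, 1.30 for KO, and 0.643 for KO+AAV at 40 weeks, and of 0.402, 0.253, and 0.467 at 10 weeks. Over all genes the medians were 0.242, 0.397, and 0.306 at 40 weeks and 0.288, 0.280, and 0.349 at 10 weeks. The SD in KO exceeded that in WT at 40 weeks for 10 of 10 members (74.3% of all genes), and at 10 weeks for 2 of 10 (47.6%). In KO+AAV it did so for 9 of 10 at 40 weeks (62.5%) and 7 of 10 at 10 weeks (62.6%). KO library 2, the highest of its group for 10 of 10 members, is part of the KO spread at 40 weeks. Without it, *Klf15* in KO spanned 539.5 to 759 normalized counts, against 589 to 938 in WT. *Mt1* in KO still spanned 123 to 847 without it, against 71.2 to 160 in WT.

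Muscle *Bmal1* delivery was set against KO directly. KO+AAV against KO gave 0 calls of 10 at 10 weeks (limma, 0.204% of all genes) and 0 of 10 at 40 weeks (0.259%), with 0 members at *P* under 0.05 at either age and 0 calls in edgeR and DESeq2. The largest difference at 10 weeks was *Mt2* (1.48 ± 0.83, adjusted *P* = 0.608). *Mt2* was at 420.5 in KO+AAV library 1 and 1361 in library 5, and *Mt1* at 423 and 1096, with the other 5 libraries at 27.7 to 86.8 for *Mt2* and 76.5 to 109 for *Mt1*. Macrophage markers summed to 134.8 RPKM in library 5 and 17.9 in library 1, against 12.7 to 54.4 in the other libraries of the group, and their part in the metallothionein values was not tested. At 40 weeks without KO library 2, *Tsc22d3* was 0.84 higher in KO+AAV than in KO (adjusted *P* = 0.138). The clock list gave 5 of 11 genes higher in KO+AAV than KO at 10 weeks and 4 of 11 at 40 weeks, among them *Dbp*, *Per3*, and *Nr1d2*, and none lower.

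WT against KO+AAV at 40 weeks called 1 of 10 members (12.5% of all genes), *Nr3c1*, at 1259, 1368, 1195, 1049.8 and 1099 in KO+AAV against the WT values above. No KO+AAV library reached the lowest WT library. The difference was 0.55 ± 0.11 (adjusted *P* = 0.000892), and it passed with each single library of either group left out and in edgeR and DESeq2. *Mt2* also had no overlap, with 100.4, 801, 97.6, 113 and 155 in KO+AAV (-1.85 ± 0.95, adjusted *P* = 0.215), as did 11.7% of all genes.

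**Figure D3:**
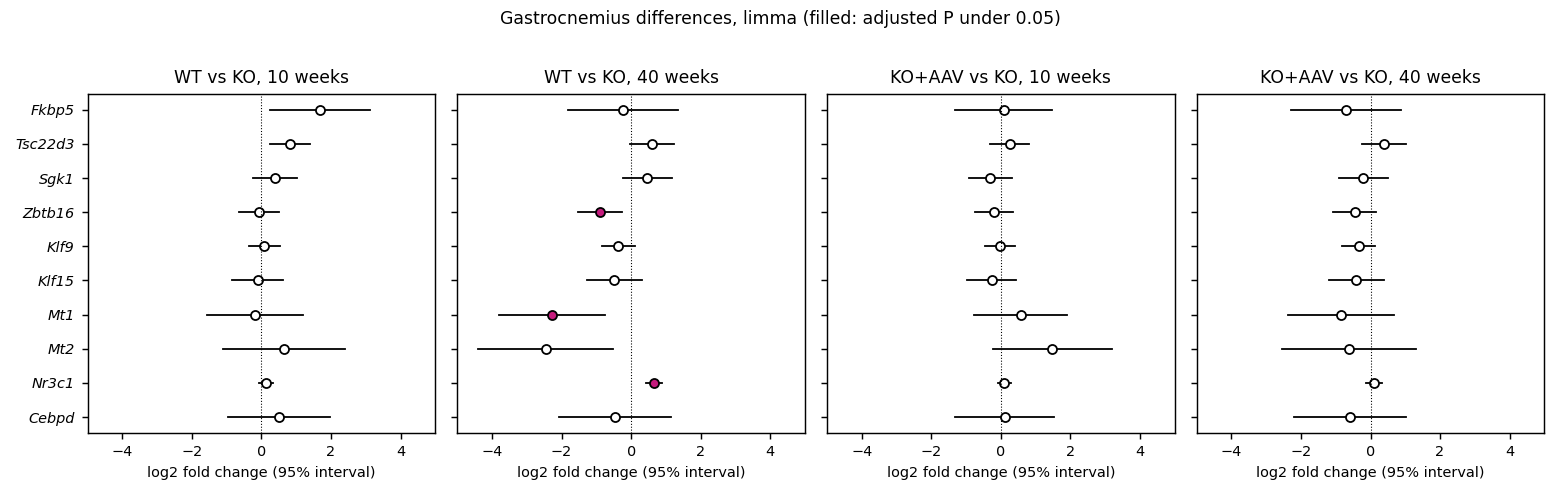
Log2 differences of the 10 genes, WT against KO and KO+AAV against KO, at 10 and 40 weeks, with 95% intervals from limma; filled points have an adjusted *P* under 0.05. The filled points are *Nr3c1*, *Mt1*, and *Zbtb16* for WT against KO at 40 weeks, and every interval of KO+AAV against KO includes 0.

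With age, *Nr3c1* was the member that fell. In KO it ranged from 1367 to 1756 at 10 weeks and from 889 to 1463 at 40 weeks, and in KO+AAV from 1450.1 to 2038 and from 1049.8 to 1368. The KO+AAV ages did not overlap (5.88% of all genes), and the KO ages did. In KO the difference was -0.41 ± 0.11 (adjusted *P* = 0.0245), the single call of 10 (8.31% of all genes). In KO+AAV it was -0.41 (adjusted *P* = 0.0193), again the single call (8.53%). In WT 0 of 10 were called (limma, 0.148%), with 0 at *P* under 0.05 and 0 in edgeR and DESeq2.

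The fall of *Nr3c1* with age was near the threshold. Of the fibroblast markers, 2 of 5 fell with age in KO+AAV, and 2 of 5 were higher in WT than in KO+AAV at 40 weeks, and their part in the *Nr3c1* differences was not tested. In KO it missed it without KO library 1 or 3 of 40 weeks (adjusted *P* = 0.0659 and 0.0602) or KO library 5 or 6 of 10 weeks (0.0609 and 0.0887), and in KO+AAV without library 4 of 40 weeks (0.0504). It also missed it with the replicate number as a block (adjusted *P* = 0.176 in KO and 0.0871 in KO+AAV) and in a fit of the 2 groups alone (0.211 and 0.153). Within Novogene, the site that sequenced both ages, the values were -0.48 (adjusted *P* = 0.063) in KO and -0.35 (adjusted *P* = 0.195) in KO+AAV. *Mt2* (2.90 ± 0.97, adjusted *P* = 0.0574) and *Zbtb16* (0.93 ± 0.31, adjusted *P* = 0.0592) also met the study's threshold for 40 against 10 weeks in KO, as 12.1% of all genes did, without passing here. Without the KO and KO+AAV libraries numbered 2, *Sgk1* was also lower in KO at 40 weeks (-0.87 ± 0.24, adjusted *P* = 0.0371).

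The difference between WT and KO was also compared between ages. It gave 0 calls of 10 in limma (0.37% of all genes), with 3 members at *P* under 0.05 (*Nr3c1*, *Mt1*, and *Mt2*), 0 calls in edgeR, and 2 in DESeq2 (*Mt1* and *Mt2*). For *Nr3c1* the difference grew by 0.51 ± 0.15 (adjusted *P* = 0.12), and without the libraries numbered 2 by 0.61 ± 0.13 (adjusted *P* = 0.0345). The same comparison of KO+AAV with KO gave 0 calls (0.00617% of all genes), with 0 at *P* under 0.05 and 0 in edgeR and DESeq2.

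Of the genes that act with the receptor, *Hsd11b1* encodes the enzyme that regenerates active corticosterone inside cells. Its normalized counts were 60.6 to 138 in WT and 28.4 to 86.0 in KO at 10 weeks, and the difference of 0.93 ± 0.29 passed (adjusted *P* = 0.045). At 40 weeks they were 86.0 to 117 in WT, 24.8 to 42.8 in KO, and 18.2 to 44.6 in KO+AAV, so WT did not overlap either group. WT exceeded KO by 1.59 ± 0.32 (adjusted *P* = 0.000446) and KO+AAV by 1.62 ± 0.32 (adjusted *P* = 0.000706). Adipocytes express *Hsd11b1* too, and their markers summed to 34.5 to 103 RPKM in WT and 41.7 to 67.4 in KO at 40 weeks. Of these, *Lep* (5.82, adjusted *P* = 2.3e-06) and *Adipoq* (2.06, adjusted *P* = 0.0273) were higher in WT. The others, *Fabp4* with means of 1946 and 1982 normalized counts among them, did not pass. Of the fibroblast markers, *Dcn* and *Pdgfra* were higher in WT and the others did not pass. The part of these cells in the *Hsd11b1* differences was not tested.

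Of this list of 16 tested genes of receptor function and hormone metabolism, 2 were higher and 0 lower in WT than KO at 10 weeks, and 4 higher and 1 lower at 40 weeks, where the shares of all genes called were 8% and 23.5%. *Nr3c2*, the mineralocorticoid receptor, was among the higher ones at 40 weeks (0.65, adjusted *P* = 0.0441). *Nr3c2* did not pass at 10 weeks (0.09, adjusted *P* = 0.889). *Hsp90ab1*, a chaperone of the receptor, was lower in WT at 40 weeks (-0.37, adjusted *P* = 0.027). Without the libraries numbered 2, 3 were higher and 0 lower at 40 weeks, *Hsd11b1* and *Ncoa1* among them. Between KO+AAV and KO limma called 0 of the 16 at either age, with 1 at an unadjusted *P* under 0.05 at 10 weeks (*Ncor1*) and 0 at 40 weeks.

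Of 20 other glucocorticoid-responsive genes tested, 1 was higher and 2 lower in WT than KO at 10 weeks, and 0 higher and 5 lower at 40 weeks, where 8% and 23.5% of all genes were called. *Cdkn1a*, a cell cycle inhibitor, had the smallest *P* at both ages. It was at 148 to 729 in WT and 1395 to 2880 in KO at 10 weeks (-2.78 ± 0.36, adjusted *P* = 2.32e-06), and at 175 to 378 in WT and 3011 to 17567 in KO at 40 weeks (-4.81 ± 0.40, adjusted *P* = 1.63e-10). *Foxo1* (-1.37, adjusted *P* = 0.0056), *Pik3r1* (-1.18, adjusted *P* = 0.00607), and *Pdk4*, which spares glucose for fat oxidation (-1.88, adjusted *P* = 0.00964), were also lower in WT at 40 weeks. All 4 passed without the libraries numbered 2 as well, in which fit 1 gene of the list was higher in WT (*Irs2*, 1.30, adjusted *P* = 0.0103). *Per1*, a clock gene with a glucocorticoid response element, did not pass at 10 weeks (1.02 ± 0.57, adjusted *P* = 0.346) or 40 weeks (0.08, adjusted *P* = 0.95). KO+AAV against KO gave 0 calls of 20 in limma at either age, with 1 at an unadjusted *P* under 0.05 at 10 weeks (*Cdkn1a*) and 1 at 40 weeks (*Pck1*).

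The relatives of the transcription factor members were measured as well. Of 14 other KLF and C/EBP genes tested, 3 were higher and 1 lower in WT than KO at each age. Of all genes, 8% were called in this comparison at 10 weeks and 23.5% at 40 weeks. Among the KLF and C/EBP genes called were *Klf13* (0.62 and 0.76 at 10 and 40 weeks), *Cebpg* (0.51 and 0.68), and, in the other direction, *Klf5* (-0.66 at 10 weeks). *Klf9*, *Klf15*, and *Cebpd* themselves did not pass at either age. Of 4 tested target genes of KLF15, *Gpt*, an alanine aminotransferase, was lower in WT than KO (-1.53, adjusted *P* = 2.54e-08 at 10 weeks, and -1.88, adjusted *P* = 1.44e-09 at 40 weeks), and lower in KO+AAV than KO at 40 weeks (-0.82, adjusted *P* = 0.0235). That call of KO+AAV against KO was lost without the libraries numbered 2, where *Gpt* passed at 10 weeks instead (-0.65, adjusted *P* = 0.0354). Of 6 metal-response genes, *Slc30a2*, a zinc transporter, was higher in WT at both ages (2.11 and 1.19, adjusted *P* = 0.0001 and 0.0249), and *Slc30a1*, which is induced with the metallothioneins by zinc, was lower in WT at 40 weeks (-0.49, adjusted *P* = 0.0449) but not without the libraries numbered 2.

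In the GFP experiment, 3 of 10 members differed between KO+GFP and control KO muscle at 10 weeks (3.09% of all genes): *Sgk1* was lower with GFP (as were 1.26% of all genes), and *Mt1* and *Mt2* were higher (1.83%). *Sgk1* was at 735, 660.1 and 686 normalized counts in KO+GFP and 1291, 1123 and 1382 in KO, a difference of -0.86 ± 0.10 (adjusted *P* = 0.000774). *Mt2* was at 94.5, 31.4 and 82.0 in KO+GFP and 9.93, 13.6 and 12.4 in KO (2.30 ± 0.37, adjusted *P* = 0.00628). *Mt1* was at 116, 69.4 and 92.5 and 39.7, 46.6 and 47.7 (1.01 ± 0.21, adjusted *P* = 0.022). These 3 genes and *Tsc22d3* had groups without overlap, as 23.5% of all genes did with 3 libraries a group. *Tsc22d3* was lower in all 3 KO+GFP libraries (817, 748 and 734 against 1060.1, 864 and 985) and did not pass (-0.34 ± 0.10, adjusted *P* = 0.0802). *Mt2* rested on 10 to 12 reads in each control library.

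*Fkbp5* and *Zbtb16* spread widely within KO+GFP. *Fkbp5* was at 789, 82.6 and 411 in KO+GFP and 65.5, 209 and 83.9 in KO (1.51 ± 0.64, adjusted *P* = 0.224), and *Zbtb16* at 1325, 379 and 842 and 313, 497 and 378 (0.95, adjusted *P* = 0.148). KO+GFP library 2 was the lowest of its group for both, and without it both passed (2.43, adjusted *P* = 0.0102, and 1.44, adjusted *P* = 0.00456). Without KO+GFP library 1 *Mt1* did not pass (adjusted *P* = 0.085), and without library 3 neither *Mt1* (0.125) nor *Mt2* (0.0613) did. *Sgk1* passed with each library left out.

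Cell markers moved with these groups. Macrophage markers summed to 26.6 to 33.1 RPKM in KO+GFP and 8.12 to 10.7 in KO, with 6 of 8 higher. Slow fiber markers summed to 479 to 611 and 53.0 to 279, with 5 of 7 higher, and fibroblast markers to 107 to 190 and 53.5 to 129, with 3 of 5 higher. Schwann cell markers were lower, at 9.87 to 14.0 against 26.7 to 38.4 RPKM, with 2 of 5 lower. Their part in the differences of *Sgk1*, *Mt1*, and *Mt2* was not tested. Of 19 other glucocorticoid-responsive genes tested, *Pdk4* was higher with GFP (2.03, adjusted *P* = 0.00142) and none was lower.

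**Figure D4:**
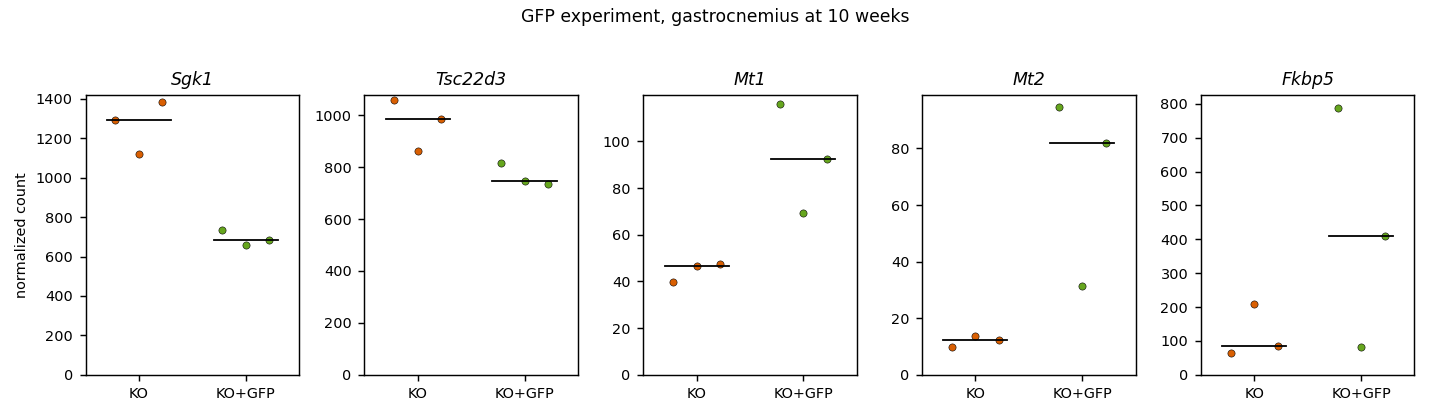
Normalized counts (linear scale from 0) of *Sgk1*, *Tsc22d3*, *Mt1*, *Mt2*, and *Fkbp5* in the 3 KO+GFP and 3 control KO libraries, with a dash at each median. The groups are apart for *Sgk1*, *Tsc22d3*, *Mt1*, and *Mt2*, and overlap for *Fkbp5*.

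In lung, heart, liver, and white fat at 40 weeks, no member was called between KO+AAV and KO. In lung limma called 0 of 10 (0.0237% of all genes), with 2 at *P* under 0.05, *Mt1* (0.41 ± 0.13, adjusted *P* = 0.263) and *Nr3c1* (-0.19, adjusted *P* = 0.376). In heart it called 0 of 10 (0%), with 0 at *P* under 0.05, and in white fat 0 of 10 (0%), also with 0. In liver it called 0 of 10 (0%), with 1 at *P* under 0.05, *Klf15*. edgeR and DESeq2 called 0 in each of these tissues. In KO+AAV lung the cardiomyocyte markers *Myh6*, *Tnni3*, *Nppa*, *Myl7*, and *Myl4* were each higher than in KO lung without overlap. None passed in limma (adjusted *P* from 0.114 to 0.234), and mean *Myh6* was 72331 normalized counts in KO+AAV and 11577 in KO. Their part in the lung differences of *Mt1* and *Nr3c1* was not tested.

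*Klf15* in liver was at 4619, 5091, 4936 and 4492 normalized counts in KO and 5238, 6639, 6319.9 and 9261 in KO+AAV. The groups did not overlap, as for 2.13% of all genes, and the difference of 0.49 ± 0.15 had an adjusted *P* of 0.997. Without KO heart library 2 the heart differences of *Tsc22d3* and *Klf15* were 0.27 and -0.11 in place of -0.19 and -0.54, and without KO white fat library 2 that of *Fkbp5* was -0.05 in place of -0.54, with 0 calls in either fit. The sign of the difference changed without these libraries for 4 members in heart (*Tsc22d3*, *Sgk1*, *Mt1*, and *Nr3c1*) and 2 in white fat (*Mt2* and *Nr3c1*).

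The members varied widely among mice of 1 group in these tissues. *Fkbp5* in lung was at 3303, 1173, 831 and 1039 in KO and 658, 3762, 633 and 1214 in KO+AAV, with KO library 1 and KO+AAV library 2 far above the others. *Zbtb16* in lung was at 7301, 2502, 2327 and 2909 and 511, 9519.9, 1164 and 1783, with the same 2 libraries high. *Mt2* in liver was at 2045, 232, 77.7 and 113 and 69.2, 3535, 25.7 and 161, again with KO library 1 and KO+AAV library 2 the highest. *Mt1* in liver was at 3753, 873, 528 and 443 and 316, 4593, 216 and 698.

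KO library 1 was the highest of its group for 9 of 10 members in lung (31.9% of all genes), 7 in heart (18.8%), and 6 in liver (26.4%), but for 2 in white fat (19.6%) and 0 in gastrocnemius (15%). Without KO heart library 2 it was the highest for 8 in heart (32.5%), and without KO white fat library 2 for 2 in white fat (28.4%). In KO+AAV, library 2 was the highest in all 5 tissues, gastrocnemius included, for *Fkbp5* and *Mt2*, and in 4 of 5 for *Mt1* and *Zbtb16*. Library 4 was the highest in 4 of 5 for *Tsc22d3*, *Klf9*, *Klf15*, and *Cebpd*. Of 13323 genes tested in all 5 tissues, 351 (2.63%) had their highest KO+AAV value in library 2 of all 5. No share of all genes is given for 4 of 5 tissues, so those matches cannot be set against one. The labels do not say whether libraries of 1 number in different tissues came from 1 mouse.

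**Figure D5:**
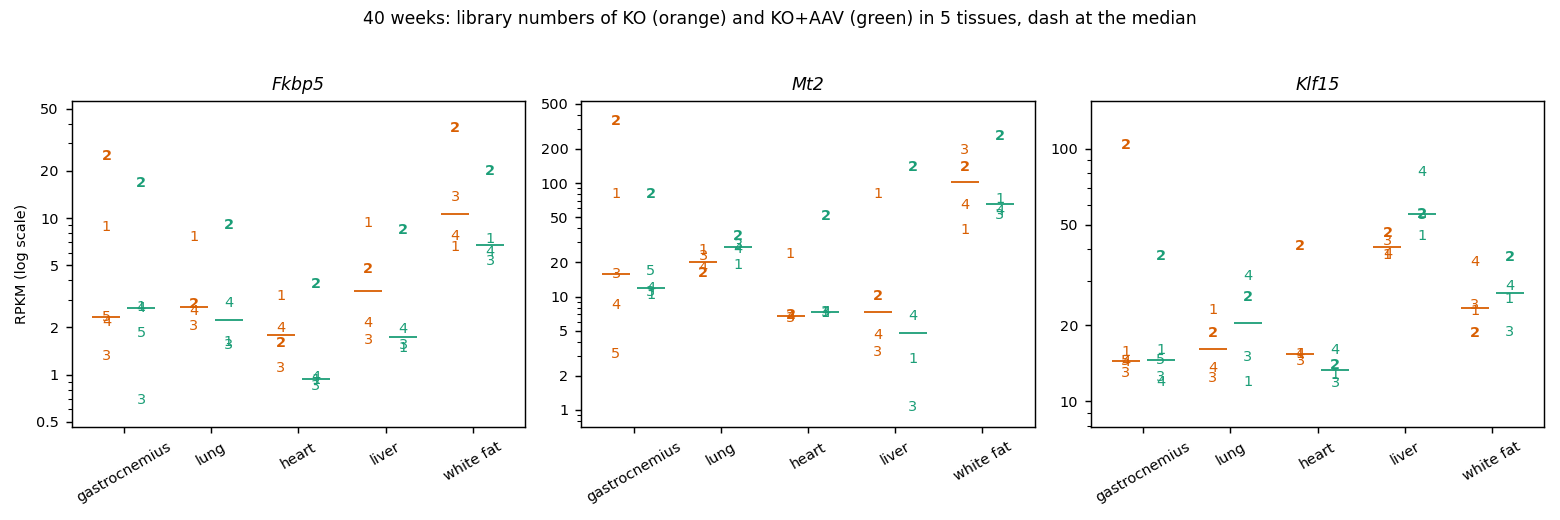
Levels of *Fkbp5*, *Mt2*, and *Klf15* in RPKM (log scale) by tissue at 40 weeks in KO and KO+AAV; each library is drawn as its number, with number 2 in bold, and a dash marks the median. Number 2 is the highest KO+AAV library in each tissue for *Fkbp5* and *Mt2*, and *Klf15* has its highest medians in liver, with KO gastrocnemius library 2 above every other point. The gastrocnemius libraries were sequenced at Novogene and those of the other tissues at ICBR.

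Levels per length (RPKM) of the KO libraries set the tissues side by side. No test was made, since the normalized counts used for tests were scaled for each tissue on its own. The KO gastrocnemius libraries compared here were all sequenced at Novogene, and those of the other tissues all at ICBR. Tissue and site therefore cannot be told apart where gastrocnemius is set against another tissue, here and in the next paragraph. White fat had the highest *Mt2*, with a median of 102 RPKM (38.9 to 198), apart from lung, the next by median, at 20.2. The other neighbors in the order overlapped, down to heart at 6.79. *Klf15* was highest in liver (40.7, range 37.9 to 46.5), apart from white fat, the next by median (23.5, range 18.7 to 35.5), and lung, heart, and gastrocnemius at 16.1, 15.4, and 14.5 overlapped. *Cebpd* was highest in lung (23.1, range 13.5 to 25.6), apart from white fat, the next by median, at 3.77, and lowest in liver at 1.30. Library 2 of KO gastrocnemius lay far above its tissue's median for each of these 3 genes.

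*Nr3c1* was high in white fat (30.7, range 11.7 to 42.5) and lung (22.7, range 20.7 to 23.6), which overlapped, and lung was apart from liver (9.63, range 8.72 to 11.1), which overlapped gastrocnemius (8.50) and heart (8.34). *Sgk1* (4.20) and *Zbtb16* (6.90) were lowest in liver, apart from the next tissue. *Zbtb16* and *Klf9* had their highest medians in gastrocnemius (22.6 and 40.8), *Tsc22d3* in lung (58.7), and *Fkbp5* in white fat (10.6, range 6.51 to 37.5), without separation from the next tissue. Without KO white fat library 2 the white fat medians were 64.0 for *Mt2*, 7.69 for *Fkbp5*, and 33.2 for *Nr3c1* (28.2 to 42.5), and *Nr3c1* in white fat was then apart from lung. Without it and KO heart library 2, *Sgk1* in heart (11.1, range 10.0 to 11.8) was apart from white fat (9.67, range 8.19 to 9.74), and heart passed gastrocnemius in the order of *Cebpd* (2.84).

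Across the 34 gastrocnemius libraries, after removal of group and site means, the 45 pairs of members had a median Pearson *r* of 0.62, from 0.054 (*Mt2* and *Nr3c1*) to 0.945 (*Mt1* and *Mt2*), and 35 were above 0.5. *Klf9* and *Klf15* had 0.932, and *Tsc22d3* and *Sgk1* 0.855. These points share libraries and depth, and KO library 2 of 40 weeks is among them. Neither values without that library nor values for pairs of all genes are given, so these correlations cannot be set against a background. Over the same 34 libraries with group differences kept, the non-member genes most like *Klf15* were *Klhl38* (*r* = 0.931), *Rbl2* (0.929), and *Mgea5* (0.907). For *Klf9* they were *Oser1* (0.917), *Pnpla7* (0.911), and *Wbp1l* (0.911), and for *Cebpd* *Map3k6* (0.840), *Wbp1l* (0.835), and *Spsb1* (0.816).

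For *Fkbp5* the most similar patterns included those of *Rab7* (0.903) and *Serinc3* (0.829), and for *Zbtb16* those of *Bnip3* (0.867), *Gabarapl1* (0.867), and *Gucd1* (0.865). *Tsc22d3* had *Csnk1e* (0.794), *Fbxw11* (0.780), and *Ctxn3* (0.779), and *Sgk1* had *Gpr146* (0.673), *Fbxw11* (0.672), and *H6pd* (0.660), the lowest values of the 10 members. *Mt1* had *Rab3gap2* (0.857), *Ctsl* (0.837), and *Tgm2* (0.832), and *Mt2* had *Tgm2* (0.816), *Mustn1* (0.813), and *Slc3a2* (0.809). *Nr3c1* had *Stag2* (0.895), *Zmym2* (0.846), and *0610010F05Rik* (0.845).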

How the data were processed

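The authors prepared poly(A)-selected libraries, aligned the reads to GRCm38 with HISAT2, and counted reads per gene with HTSeq. They deposited signal values, in which a DESeq2 size factor of the library scales each count, with each tissue and the GFP experiment normalized separately. Multiplied by the size factor, 100% of the values gave whole reads within 0.01, so reads were recovered for all 72 libraries, and 0 columns belonged to no sample.

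Normalized counts were tested here on the log2(count + 1) scale in R 4.3.3 (limma 3.58.1, variance trended on mean level), over genes with a mean normalized count above 5. One model held the 34 gastrocnemius libraries (6 groups, with site as a covariate), and the GFP experiment and each tissue had a model of their own. A call is a Benjamini-Hochberg adjusted *P* under 0.05 over all genes tested, with *P* under 0.01, the study's threshold, beside it. RPKM was computed from recovered reads and GENCODE vM21 exon lengths on GRCm38. The annotation release and strand setting of the authors' counting are not given in the sources used here.

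The 10 genes and the lists were chosen with earlier results of these data known. By rule, all members are described in every comparison, and of the other lists the counts and at most 4 called genes with the smallest *P*, besides *Hsd11b1*, *Per1*, and *Nr3c2*. *Irs2*, *Ncoa1*, *Ncor1*, *Pck1*, *Trim63*, *Fbxo32*, and the genes named as highest in a library were named after their values were seen. For likeness, 3 genes with the highest Pearson *r* are given per member (2 for *Fkbp5*). Some results that these rules cover are not reported here. Nothing in the labels says how the mice were spread over litters or cages, so *P* values measure the spread between these libraries.

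Alternatives were another pseudocount (0.5), other filters (none, or a floor of 50 on the mean), edgeR 4.0.16 and DESeq2 1.42.0 on recovered reads, TMM scaling, library quality weights, a replicate block, no site term, 1 site alone, the 2 groups alone, and each library left out. Leaving out the KO and KO+AAV libraries numbered 2 at 40 weeks together, each 10-week library in turn, and the levels of KO heart and white fat without library 2, was chosen after seeing the data. Code was tested on simulated data with 4-fold changes. False calls made up 10.9% of calls for WT against KO at 40 weeks, 9% for the GFP experiment, and 3.68% for liver. Counting error of a gene follows its reads, and is largest for *Mt2*. The study's proteomics was not analysed here.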

Additional observations from a re-analysis of the deposited data

Results flagged for a closer look

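Within groups of 4 to 7 libraries, Dixon's test at the 95% level was applied to untransformed normalized counts of each member. In 42 of 140 such sets of values 1 library was far from the others. For independent, normally distributed values about 1 in 20, or 7, would be flagged. Members vary together within a library and the counts were not on a log scale, so 42 cannot be set against 7. No share over all genes is given. The distant library was the highest in 41 and the lowest in 1, and KO library 2 (8 genes) and KO+AAV library 2 (7 genes) of 40-week gastrocnemius held the most. All values below are normalized counts.

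In 40-week gastrocnemius, KO library 2 was far above its group for *Tsc22d3* (6989.8), *Sgk1* (7455), *Zbtb16* (6952), *Klf9* (9799.7), *Klf15* (5408), *Mt1* (6513), *Mt2* (3931), and *Cebpd* (4685). KO+AAV library 2 was far above for *Fkbp5* (2714), *Zbtb16* (2655), *Klf9* (5732), *Klf15* (1777), *Mt1* (1148), *Mt2* (801), and *Cebpd* (1420.3). WT library 5 was far below for *Nr3c1* (1433).

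At 10 weeks, KO library 6 stood far above for *Fkbp5* (1364) and *Klf9* (3487), and KO library 5 for *Mt1* (166). KO+AAV library 1 stood far above for *Fkbp5* (2516) and *Zbtb16* (2016), and KO+AAV library 5 for *Mt1* (1096) and *Mt2* (1361).

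In liver, KO library 1 was far above for *Mt1* (3753) and *Mt2* (2045), KO library 4 for *Nr3c1* (3572), and KO+AAV library 2 for *Fkbp5* (3413), *Mt1* (4593), and *Mt2* (3535). In heart, KO library 2, which holds hepatocyte markers, was far above for *Tsc22d3* (8678) and *Klf15* (5696), KO library 1 for *Mt2* (633), and KO+AAV library 2 for *Fkbp5* (1504) and *Mt2* (1276). In white fat, KO+AAV library 2 was far above for *Fkbp5* (7426), *Mt1* (11183), and *Mt2* (5976). In lung, KO library 1 was far above for *Fkbp5* (3303) and *Zbtb16* (7301), KO+AAV library 2 for *Zbtb16* (9519.8), KO+AAV library 4 for *Tsc22d3* (24233), and KO+AAV library 1 for *Nr3c1* (7559.5).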

How the results depend on the processing

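Of the counts of members called, 235 of 265 values under the alternatives planned beforehand stayed within 1.5 times the value of the chosen model. Most comparisons had a count of 0 in that model, so for them this share says little about stability. Under the alternatives listed with the methods, no difference called or with an unadjusted *P* under 0.01 changed sign. Of the uncalled differences, those of 4 members in heart and 2 in white fat did so without the KO library numbered 2 of that tissue. For WT against KO, the count of 0 at 10 weeks became 1 with DESeq2, 2 with quality weights, 2 with the 2 groups alone, 1 with ICBR alone, and 1 without the KO and KO+AAV libraries numbered 2 at 40 weeks, and the count of 3 at 40 weeks became 6 with DESeq2 and 1 with the 2 groups alone. For WT against KO+AAV, 0 became 3 with weights, 1 with the 2 groups alone, and 2 with ICBR alone and without the libraries numbered 2 at 10 weeks, and 1 became 2 with the 2 groups alone at 40 weeks. For 40 against 10 weeks in KO, 1 became 6 (DESeq2), 5 (edgeR), 2 (no site term), 2 (without the libraries numbered 2), and 0 (Novogene alone, 2 groups alone), and in KO+AAV 1 became 0 (Novogene alone, 2 groups alone). For WT against KO between ages, 0 became 2 (DESeq2), 1 (weights), and 1 (without the libraries numbered 2). The cause was not tested. No share of all genes called is given for any of these alternatives, so the changed counts cannot be set against one.

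With 1 library left out, the counts ranged from 0 to 1 for WT against KO and against KO+AAV at 10 weeks, from 1 to 4 for WT against KO at 40 weeks, from 0 to 4 for 40 against 10 weeks in KO, from 0 to 1 in KO+AAV, and from 1 to 5 in the GFP experiment. All other comparisons with libraries left out kept their counts.

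Same-numbered libraries did not deviate together in every pair (correlations from -0.38 to 0.58), so the numbers were not taken as pairs. With the replicate number as a block, the count became 2 for WT against KO at 10 weeks, and 0 for 40 against 10 weeks in KO and in KO+AAV, and it stayed within 1.5 times in the others.

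Of the named differences, *Zbtb16* in WT against KO at 40 weeks did not pass with no filter (adjusted *P* = 0.0577) or weights (0.146), nor *Mt1* with weights (0.0749) or Novogene alone (0.0544). Depth limited *Mt2* most, with 10 to 12 reads in the GFP controls.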
